A study of Mus musculus with 13 samples.

Results

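The data describe 10 genes that bind, import, store or export metals in the mouse midbrain: the metallothioneins Mt1, Mt2 and Mt3, the transporters Slc39a14, Slc11a1, Slc11a2 and Slc40a1, the transferrin receptor Tfrc and the ferritin subunits Fth1 and Ftl1. They were chosen by name, with earlier results of these data known, and all 10 of the 49315 genes counted were found and passed the filter of at least 10 reads in at least 3 libraries that left 19360 genes for testing. After MPTP, midbrains of Cre- littermates held several times more Mt1, Mt2 and Slc11a1 RNA, more Slc39a14 RNA and 0.251 times the Slc40a1 RNA of saline-treated littermates. In Cre+ mice none of the 10 passed the test after MPTP, with edgeR, DESeq2 or limma voom. Of all 19360 genes these called 0, 83 and 294 there. A direct test of whether the 2 genotypes differed in their response to MPTP passed for 0 of the 10 in edgeR. Its outcome depended on the tool and on 1 library, as given below.

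Metallothioneins are small, cysteine-rich proteins that hold zinc and copper ions. Mt1 and Mt2 are made in many cell types, astrocytes among them, and are known to be induced by metals through the transcription factor MTF-1, by glucocorticoids and by cytokines of the IL-6 family, whereas Mt3 is the form typical of brain and is not known for strong induction by metals. Cells take up transferrin-bound iron through the transferrin receptor and move it out of endosomes by DMT1, the product of Slc11a2. They take up iron, zinc and manganese that are not bound to transferrin through ZIP14, the product of Slc39a14. Iron is stored in ferritin, a shell of heavy (Fth1) and light (Ftl1) chains, and leaves the cell through ferroportin, the product of Slc40a1. NRAMP1, the product of Slc11a1, moves divalent metals out of the phagosomes of macrophages and neutrophils. MPTP is a toxin whose metabolite kills dopaminergic neurons, and iron accumulates in the substantia nigra in Parkinson disease.

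RNA was sequenced from whole midbrain of 13 male mice, each library from a different animal. All carried floxed Ripk3 alleles (Ripk3fl/fl) and all were given tamoxifen at 60 mg/kg on 5 days, and the groups differed in whether they carried a tamoxifen-activated Cre driven by the astrocyte gene Aldh1l1 and in what was injected afterwards. The 4 groups were Ripk3fl/fl Aldh1l1Cre- mice given saline (Cre- Saline, n = 3), Ripk3fl/fl Aldh1l1Cre+ mice given saline (Cre+ Saline, n = 3), Cre- mice given MPTP at 20 mg/kg on 5 days (Cre- MPTP, n = 3) and Cre+ mice given the same MPTP course (Cre+ MPTP, n = 4). Tissue was taken 3 days after the last injection, and mice entered the experiments at 8 to 12 weeks of age. Because Cre acts only in cells in which the Aldh1l1 driver is on, Ripk3 was left intact in all other cells of the Cre+ tissue, and in bulk tissue fewer cells of a type cannot be told apart from less RNA per cell.

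The libraries held 11489150 to 29397278 counted reads, with a median of 24907639. Cre- MPTP replicate 1 stood apart: it had the fewest reads and 21101 genes with a read against 25432 to 27186 in the other 12, and genes with over 8 kb of exon lay at a median of −0.44 below their group mean on the log2 scale, against −0.125 to 0.075 in the libraries of the other 3 groups. The tests that use this library are therefore given with and without it, gene by gene for the 10 genes and together for the other lists. Ripk3, the gene targeted in Cre+ mice, had 4 to 40 reads per library, and its adjusted p for Cre+ against Cre- was 1 under saline and 0.224 under MPTP, so bulk counts gave no check of the deletion. The paper checked it elsewhere, and reports no Ripk3 transcript in astrocytes sorted from Cre+ mice and unchanged levels in sorted myeloid cells. All 10 astrocyte, 10 neuron, 10 oligodendrocyte and 10 dopaminergic neuron markers listed had reads in every group, and the dopaminergic markers, which place the tissue in the midbrain, summed to 424 to 728 CPM per library. The 424 CPM belonged to Cre- MPTP replicate 1. Replicates 2 and 3 held 656 to 705 CPM, beside 579 to 685 CPM in Cre- Saline. With MPTP in Cre- mice 0 of the 10 passed (2 at an unadjusted p under 0.05), with 4 higher and 6 lower, and without replicate 1 there was 1 that passed, higher.

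The promoters of the metallothioneins are shown because all 3 genes lie side by side on chromosome 8 yet did not move together. RefSeq windows on GRCm38.p6 were available for 7 of the 10 genes. Printed here are the 250 bases before the annotated start, 5′ to 3′ on the + strand, with matches to the core of the metal response element, the MTF-1 site, in capitals (TGCACNC or TGCGCNC on either strand).

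Mt1, chr8:94178839-94179088: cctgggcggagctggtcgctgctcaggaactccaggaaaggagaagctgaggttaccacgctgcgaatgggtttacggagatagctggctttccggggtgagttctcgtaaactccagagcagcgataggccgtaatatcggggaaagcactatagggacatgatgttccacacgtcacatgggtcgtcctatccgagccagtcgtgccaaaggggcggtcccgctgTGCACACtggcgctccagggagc
Mt2, chr8:94172368-94172617: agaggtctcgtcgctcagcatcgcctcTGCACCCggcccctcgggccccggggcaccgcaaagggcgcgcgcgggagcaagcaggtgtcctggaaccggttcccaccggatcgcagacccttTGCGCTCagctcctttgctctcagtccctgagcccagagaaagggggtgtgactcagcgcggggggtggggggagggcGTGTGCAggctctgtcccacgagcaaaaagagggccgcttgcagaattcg
Mt3, chr8:94152357-94152606: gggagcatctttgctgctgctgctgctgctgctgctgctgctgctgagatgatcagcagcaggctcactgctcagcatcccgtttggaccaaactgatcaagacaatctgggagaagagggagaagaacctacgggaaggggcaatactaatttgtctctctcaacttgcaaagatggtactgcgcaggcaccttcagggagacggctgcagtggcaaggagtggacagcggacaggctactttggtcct

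The Mt2 window held 3 cores, the Mt1 window 1 and the Mt3 window 0. Of the other members, 1 of the windows of Tfrc, which passed in no comparison, held 2 overlapping cores on opposite strands, and the windows of Slc11a1, which rose, Fth1 and Ftl1 held 0. Of all 32851 RefSeq windows of this length, 21.4% held at least 1 core and 1.26% at least 3. A GENCODE M21 transcript of Mt1 starts further downstream, at position 94179241 of chromosome 8, and the 159 bases between the 2 annotated starts held 4 more cores (TGCACTC at 150, TGCGCTC at 132, GGGTGCA on the other strand at 68 and TGCGCCC at 54 bases before the downstream start). The core of the antioxidant response element (TGACNNNGC on either strand) was matched once in the Mt2 window, as TGACTCAGC at 79 to 71 bases before the start, and in none of the Mt1, Mt3, Ftl1, Slc11a1, Fth1 and Tfrc windows. At least 1 such core stood in 10.2% of all windows. These matches are letters in a window and not measured binding sites.

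A stem-loop through which iron controls several of these genes, the iron responsive element, was searched for by its letters and matched in transcripts of 4 of the 10. Iron regulatory proteins bind it when iron is scarce. In the 5′ untranslated region binding blocks translation, and in the 3′ untranslated region of Tfrc it protects the transcript from decay. The pattern searched was a C, 5 bases, the loop CAGTGN and 5 bases that pair with the first 5, with G-U pairs allowed. The sites found in GENCODE M21 transcripts (GRCm38) are printed with the loop in capitals.

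Fth1, 5′ untranslated region, chr19:9982735-9982757 (+): ctgcttcaaCAGTGCttgaacgg
Ftl1, 5′ untranslated region, chr7:45459782-45459804 (−): ttgcttcaaCAGTGTttgaacgg
Slc40a1, 5′ untranslated region, chr1:45925468-45925490 (−): cttcagctaCAGTGTtagctaag
Tfrc, 3′ untranslated region, chr16:32631222-32631244 (+): tatcggaagCAGTGCcttccata
Tfrc, 3′ untranslated region, chr16:32631601-32631623 (+): tatcgggagCAGTGTcttccata
Tfrc, 3′ untranslated region, chr16:32631666-32631688 (+): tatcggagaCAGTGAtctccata
Tfrc, 3′ untranslated region, chr16:32631713-32631735 (+): tatcgggaaCAGTGTttcccata

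Among 21877 genes with a coding transcript, 160 (0.731%) held this pattern in an untranslated region, 31 of them in the 5′ and 129 in the 3′ region. Tfrc, with 4 sites in its 3′ region, was the only gene with 2 or more there. The pattern was not matched in the metallothionein, Slc39a14, Slc11a1 or Slc11a2 transcripts. Some Slc11a2 transcripts are known to carry an iron responsive element in the 3′ untranslated region, with a bulged stem that these letters do not allow.

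Levels differed over more than 3 orders of magnitude between the 10 genes. Per kilobase of summed exon length, Cre- Saline midbrain held 2281 ± 165 CPM per kb of Fth1 (mean ± SD, n = 3), 346 ± 52.2 of Mt3, 138 ± 28.4 of Ftl1, 125 ± 9.05 of Mt1 and 96.6 ± 17.7 of Mt2. CPM is the read count scaled to library size with TMM factors. Ftl1 and Mt1, neighbours in this order, differed by less than their spread. Among the transporters and the receptor the order was Tfrc (16.8 ± 1.40), Slc11a2 (10.3 ± 1.16), Slc39a14 (3.13 ± 0.332), Slc40a1 (1.53 ± 0.0606) and Slc11a1 (0.689 ± 0.0787 CPM per kb). The ferritin heavy chain was thus the most abundant of the 10 transcripts and NRAMP1 the rarest in saline-treated Cre- midbrain. After MPTP in Cre- mice Slc11a1 stood at 2.94 ± 1.66 CPM per kb and Slc40a1 at 0.373 ± 0.169 CPM per kb, the reverse order of this pair.

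**Figure D1:**
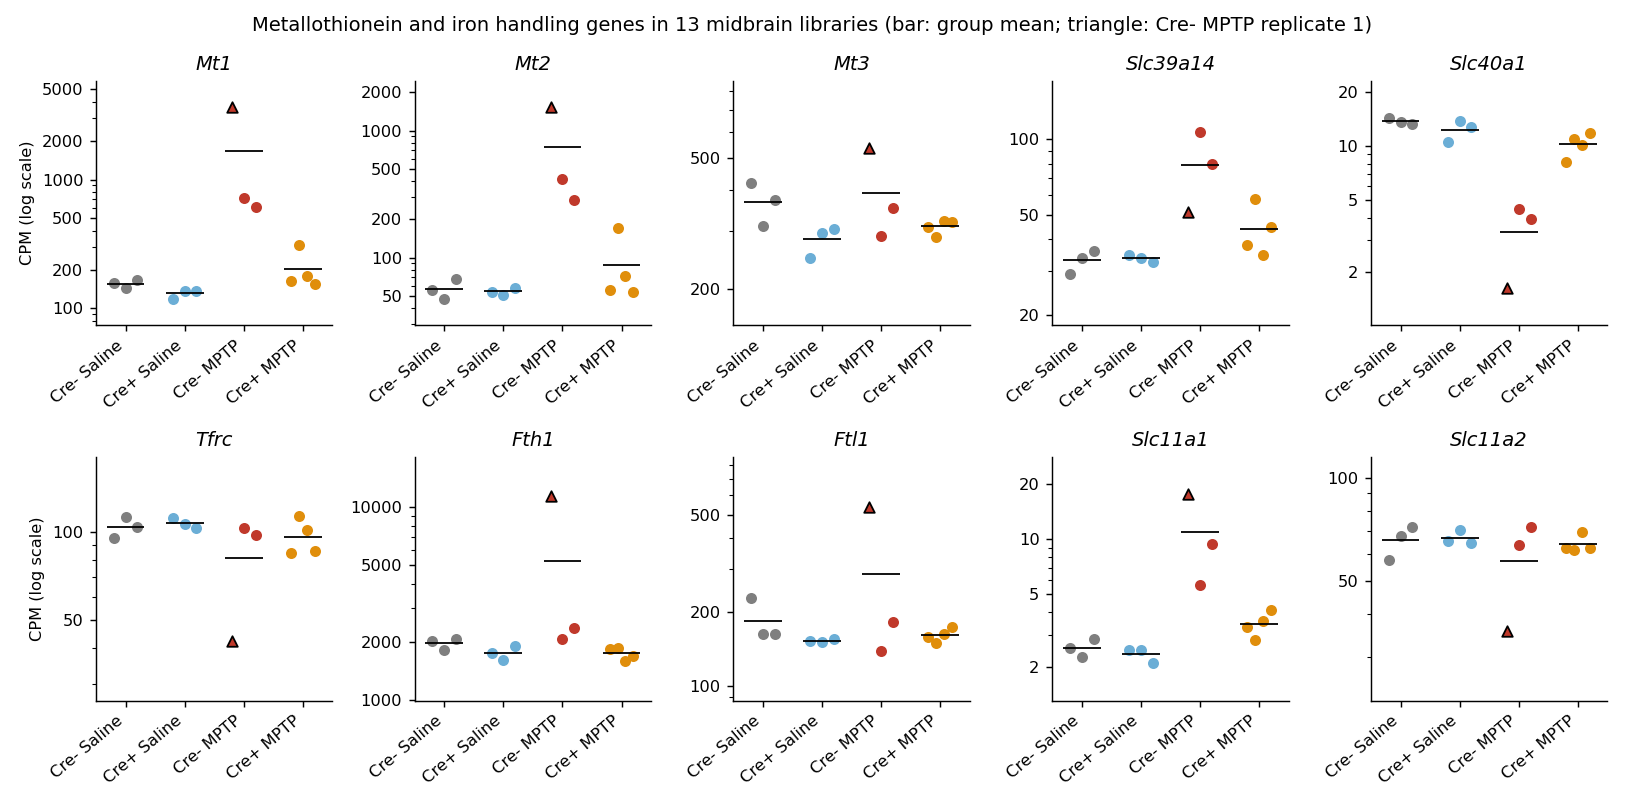
Levels of the 10 genes in 13 midbrain libraries, in CPM on a log scale, 1 point per animal, with the group mean as a bar and Cre- MPTP replicate 1 as a triangle. For Mt1, Mt2, Slc39a14 and Slc11a1 all 3 Cre- MPTP animals lie above, and for Slc40a1 below, every Cre- Saline animal, whereas for Ftl1, Tfrc and Slc11a2 the triangle lies apart from the other 12 libraries and for Fth1 it lies far above them.

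Mt1 (ENSMUSG00000031765, chr8:94179082-94180327, + strand of GRCm38) rose with MPTP in Cre- mice and stood far lower in Cre+ mice given MPTP. It measured 156, 144 and 166 CPM in Cre- Saline midbrain and 3634, 712 and 612 CPM after MPTP. In Cre+ mice it measured 119, 136 and 137 CPM with saline and 163, 311, 179 and 155 CPM after MPTP. Each Cre- MPTP animal exceeded each of the other 10 animals, and the nearest pair was 612 CPM in Cre- MPTP and 311 CPM in Cre+ MPTP midbrain. The fitted change was 3.41 on the log2 scale (SE 0.587, 10.6-fold, adjusted p = 0.00609 in edgeR's quasi-likelihood test) for MPTP in Cre- mice, and −3.03 (SE 0.518, adjusted p = 0.0158) for Cre+ against Cre- under MPTP. The 3 Cre- MPTP libraries enter both of these contrasts, here and for the genes that follow. Without replicate 1 the values were 2.09 (adjusted p = 0.000111) and −1.72 (adjusted p = 0.000842).

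Mt2 (ENSMUSG00000031762, chr8:94172664-94173568, +) moved with it. It measured 55.5, 47.1 and 67.8 CPM in Cre- Saline midbrain and 1538, 420 and 282 CPM after MPTP, in the same order of animals as Mt1. In Cre+ mice it measured 53.7, 51.1 and 57.9 CPM with saline and 55.2, 172, 72.0 and 53.3 CPM after MPTP. Cre+ MPTP replicate 2 was the highest of its group for both genes, and it stayed below every Cre- MPTP animal. The log2 fold change was 3.72 in Cre- mice (SE 0.627, 13.1-fold, adjusted p = 0.0054), and −3.08 for Cre+ against Cre- under MPTP (SE 0.546, adjusted p = 0.0174). Without Cre- MPTP replicate 1 these were 2.63 (adjusted p = 0.000938) and −2.00 (adjusted p = 0.00764). The antisense gene Gm45774 shares exon sequence with Mt2 on the opposite strand and changed by 3.02 in Cre- mice (adjusted p = 0.00973), and by 2.30 without replicate 1 (adjusted p = 0.00514). The strand setting of the counting is not given in the sources used here, so reads of this pair cannot be told apart.

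Mt3 (ENSMUSG00000031760, chr8:94152607-94154146, +) did not pass the test in any comparison. It measured 422, 311 and 374 CPM in Cre- Saline, 249, 297 and 305 in Cre+ Saline, 537, 289 and 352 in Cre- MPTP and 310, 288, 323 and 320 CPM in Cre+ MPTP midbrain, and the Cre- groups overlapped. Its log2 fold change with MPTP in Cre- mice was 0.09 (95% interval −0.35 to 0.53), and −0.20 without replicate 1. The balance within the family differed between groups, as the ratio of Mt1 to Mt3 per length was 0.317 to 0.396 in the 3 Cre- Saline animals, 1.49 to 5.79 in the Cre- MPTP animals, 0.383 to 0.409 in the Cre+ Saline and 0.414 to 0.923 in the Cre+ MPTP animals. The ratio of Mt1 to Mt2 per length was 1.16 to 1.44 in Cre- Saline, 0.801 to 1.11 in Cre- MPTP, 1.04 to 1.26 in Cre+ Saline and 0.853 to 1.39 in Cre+ MPTP midbrain, so that both Cre+ groups overlapped both Cre- groups.

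Slc39a14 (ENSMUSG00000022094, chr14:70303469-70351425, −), which encodes the importer ZIP14, rose in Cre- mice. It measured 29.2, 33.8 and 36.0 CPM with saline and 51.5, 107 and 79.5 CPM after MPTP in Cre- midbrain, and 34.7, 33.6 and 32.5 against 37.9, 58.1, 34.5 and 44.8 CPM in Cre+ midbrain. All 3 Cre- MPTP animals lay above all 6 saline animals, but the lowest of them, replicate 1, lay below Cre+ MPTP replicate 2. The change in Cre- mice was 1.27 (SE 0.248, 2.40-fold, adjusted p = 0.0132), and it missed the threshold without Cre- Saline replicate 1 (adjusted p = 0.0767) or Cre- Saline replicate 2 (adjusted p = 0.0711). For Cre+ against Cre- under MPTP it was −0.86 (SE 0.227, adjusted p = 0.0999). That comparison passed without Cre- MPTP replicate 1 (−1.09, adjusted p = 0.00325), with a trend on gene length removed (−1.02, adjusted p = 0.00987) and in DESeq2 (adjusted p = 0.00937).

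Slc11a1 (ENSMUSG00000026177, chr1:74375195-74386062, +), which encodes NRAMP1, rose in Cre- mice after MPTP. It measured 2.54, 2.27 and 2.85 CPM with saline and 17.7, 5.62 and 9.44 CPM after MPTP in Cre- midbrain. In Cre+ midbrain it measured 2.48, 2.48 and 2.09 CPM with saline and 3.33, 2.80, 3.59 and 4.12 CPM after MPTP. The 3 Cre- MPTP animals lay above all 10 others. The change was 2.08 in Cre- mice (SE 0.346, 4.22-fold, adjusted p = 0.00506) and −1.64 for Cre+ against Cre- under MPTP (SE 0.311, adjusted p = 0.0246). Without Cre- MPTP replicate 1 these were 1.57 (adjusted p = 0.000989) and −1.12 (adjusted p = 0.0127).

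Markers of the cells known to use NRAMP1 moved too. Of 10 neutrophil genes 7 were tested and 5 rose with MPTP in Cre- mice (S100a8, S100a9, Mmp8, Mmp9 and Retnlg). The summed level of the 10 went from 7.15 to 8.54 CPM in Cre- Saline to 19.3 to 84.6 CPM in Cre- MPTP, against 9.35 to 13.5 CPM in Cre+ MPTP midbrain. Mmp8, Retnlg and S100a8 averaged 0.0374, 0.0365 and 0.138 CPM in Cre- Saline and 0.127, 0.0911 and 0.194 CPM in Cre+ Saline midbrain. They passed the filter only through reads after MPTP, so the count of 5 is partly set by that filter. The neutrophil marker Ly6g never exceeded 3 reads, and 4 of the 7 (S100a8, S100a9, Mmp8 and Retnlg) were lower in Cre+ than in Cre- mice under MPTP. Over all genes tested 2.23% rose and 0.956% fell with MPTP in Cre- mice, and 1.03% were lower in Cre+ mice under MPTP. Of 10 microglia genes 4 fell in Cre- mice (P2ry12, Gpr34, Siglech and Fcrls), with a summed level of 264 to 304 CPM with saline, 177 to 241 after MPTP in Cre- and 260 to 342 CPM after MPTP in Cre+ midbrain. Among 10 macrophage and monocyte genes Ly6c2 rose and Mrc1 fell, and their sum lay between 9.97 and 27.9 CPM in Cre- MPTP midbrain and between 15.9 and 17.1 CPM in Cre- Saline midbrain. Ly6c2, at 0.127 CPM in Cre- Saline and 0.328 CPM in Cre+ Saline midbrain, also passed the filter only through reads after MPTP. With Cre- MPTP replicate 1 left out, 5 of 6 neutrophil genes tested rose in Cre- mice and 3 were lower in Cre+ mice under MPTP. The filter partly sets these counts as well. Ly6c2 and Mrc1 passed as before in Cre- mice. The order of the 3 Cre- MPTP animals differed: the neutrophil sum was 34.03, 19.3 and 84.6 CPM where Slc11a1 was 17.7, 5.62 and 9.44 CPM. The paper counted cells of MPTP-treated midbrain by flow cytometry, also 3 days after MPTP. It reports very few infiltrating leukocytes, and no genotype difference in their number or in microglia. The part of neutrophils, macrophages and microglia in the Slc11a1 difference was not tested.

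Slc11a2 (ENSMUSG00000023030, chr15:100387898-100425072, −), which encodes the endosomal carrier DMT1, did not pass in any comparison. It measured 57.4, 67.7 and 71.7 CPM in Cre- Saline, 65.3, 70.5 and 64.3 in Cre+ Saline, 35.8, 63.6 and 71.9 in Cre- MPTP and 62.3, 61.5, 69.3 and 62.2 CPM in Cre+ MPTP midbrain. The low value belonged to Cre- MPTP replicate 1. The log2 fold change in Cre- mice was −0.20 (95% interval −0.64 to 0.25) and turned to 0.05 without that library. Per length, the ratio of Slc11a2 to Slc11a1 was 13.2 to 17.4 in Cre- Saline, 1.18 to 6.59 in Cre- MPTP, 15.3 to 17.9 in Cre+ Saline and 8.81 to 12.8 in Cre+ MPTP midbrain. Both MPTP groups lay below both saline groups in this ratio.

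Slc40a1 (ENSMUSG00000025993, chr1:45908068-45926523, −), which encodes the exporter ferroportin, was the 1 gene of the 10 that fell. It measured 14.4, 13.7 and 13.3 CPM in Cre- Saline midbrain and 1.63, 4.48 and 3.96 CPM after MPTP. In Cre+ mice it measured 10.6, 13.8 and 12.8 CPM with saline and 8.13, 10.97, 10.2 and 11.8 CPM after MPTP. Every Cre- MPTP animal was below each of the other 10 animals. The change was −1.99 in Cre- mice (SE 0.288, 0.251-fold, adjusted p = 0.00253) and 1.57 for Cre+ against Cre- under MPTP (SE 0.274, 2.97-fold, adjusted p = 0.0172). Without replicate 1 they were −1.70 (adjusted p = 9.09e-05) and 1.28 (adjusted p = 0.00147). Ferroportin is made by several cell types of the brain, and 3 of 10 oligodendrocyte genes (Opalin, Mog and Cnp), 4 of 10 microglia genes (above) and the endothelial gene Tek fell in the same comparison. Of 8 meningeal fibroblast genes 2 fell and 1 rose, and of 10 macrophage and monocyte genes Mrc1 fell and Ly6c2 rose. Over all genes tested 0.956% fell. Tek went against most of its list, in which 7 of 10 genes had a positive change (median 0.34) and whose summed level was 472 to 526 CPM in Cre- Saline and 543 to 827 CPM in Cre- MPTP midbrain. The 827 CPM belonged to Cre- MPTP replicate 1, and replicates 2 and 3 held 543 and 569 CPM. Without replicate 1 the counts were 6 lower of oligodendrocyte, 5 lower of microglia, and 3 higher and 1 lower of endothelial genes. Of the meningeal fibroblast genes 2 were then higher and 2 lower. The number called over all genes rose from 616 to 1812 in that fit. Between genotypes under MPTP the same 4 microglia genes, Tek and Opalin were higher in Cre+ mice, beside 0.517% of all genes. The part of these cells in the Slc40a1 difference was not tested.

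Tfrc (ENSMUSG00000022797, chr16:32608920-32632794, +), the receptor for transferrin, did not pass in any comparison. It measured 95.1, 112 and 104 CPM in Cre- Saline, 112, 106 and 104 in Cre+ Saline, 42.1, 104 and 97.9 in Cre- MPTP and 84.9, 114, 102 and 85.7 CPM in Cre+ MPTP midbrain. Again only replicate 1 of Cre- MPTP was low. The log2 fold change in Cre- mice was −0.35 (95% interval −0.92 to 0.21), and −0.04 without that library. The ratio of Tfrc to Slc40a1 per length was 33.7 to 37.6 in the 3 Cre- MPTP animals, against 9.64 to 11.97 in Cre- Saline, 11.3 to 15.4 in Cre+ Saline and 10.6 to 15.2 in Cre+ MPTP midbrain. The ratio was 37.6 in Cre- MPTP replicate 1, where both genes were lowest, and 33.7 and 36.0 in the other 2 animals of its group.

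The ferritin subunits did not pass, and their high mean after MPTP came from 1 animal. Fth1 (ENSMUSG00000024661, chr19:9980598-9985098, +), the heavy chain that oxidises iron for storage, measured 2028, 1814 and 2084 CPM in Cre- Saline midbrain and 11395, 2065 and 2369 CPM after MPTP. In Cre+ mice it measured 1760, 1621 and 1902 CPM with saline and 1843, 1863, 1591 and 1696 CPM after MPTP. Replicates 2 and 3 of Cre- MPTP lay within or just above the saline range, and above all 4 Cre+ MPTP animals. The log2 fold change in Cre- mice was 1.42 (SE 0.492, adjusted p = 0.198), and 0.17 (adjusted p = 0.348) without replicate 1. For Cre+ against Cre- under MPTP it was −1.59 (SE 0.451, adjusted p = 0.13), and −0.35 (adjusted p = 0.0875) without that library.

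Ftl1 (ENSMUSG00000050708, chr7:45457944-45459884, −), the light chain, measured 229, 163 and 162 CPM in Cre- Saline, 152, 151 and 156 in Cre+ Saline, 538, 139 and 182 in Cre- MPTP and 159, 150, 163 and 174 CPM in Cre+ MPTP midbrain. The Cre- groups overlapped, with replicate 1 alone above the saline range, and the fitted change turned from 0.63 (SE 0.379, adjusted p = 0.433) to −0.20 (adjusted p = 0.441) without it. Ferritin pseudogenes resemble both subunits, and Ftl1 shares exon sequence with Gm10252 and Gm22133, so part of these counts is uncertain.

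**Figure D2:**
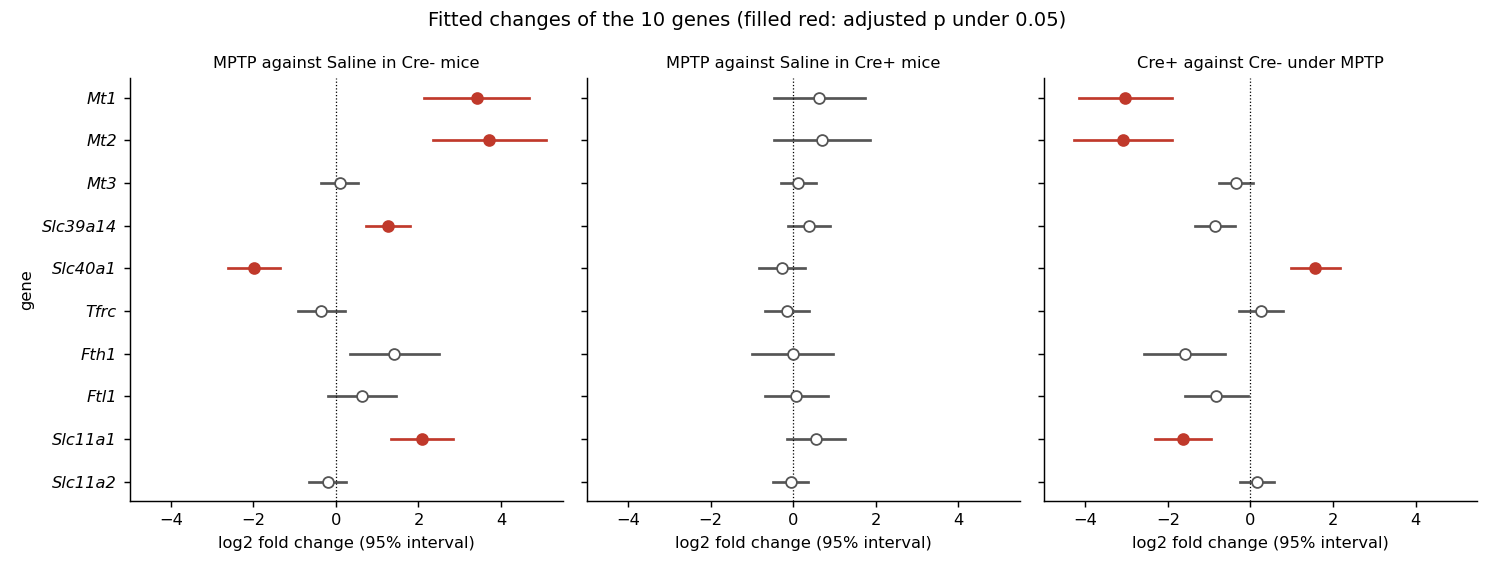
Fitted log2 fold changes of the 10 genes with 95% intervals in 3 comparisons, with filled red points for an adjusted p under 0.05. In Cre- mice 5 genes passed after MPTP, in Cre+ mice none did, and 4 passed between genotypes under MPTP, where Mt1, Mt2 and Slc11a1 were lower and Slc40a1 higher in Cre+ mice.

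Over all 10 genes, MPTP changed 5 of the 10 genes in Cre- mice, 4 higher and 1 lower, where 3.18% of the 19360 genes tested passed (2.23% higher and 0.956% lower). The animals of the 2 groups did not overlap for these 5 genes, which held for 15.1% of all genes. The median log2 fold change of the 10 genes was 0.95, beside 0.03 over all genes, with 7 higher and 3 lower. That median rests in part on Cre- MPTP replicate 1, which alone held the high ferritin values. Without that library 4 genes passed higher and 1 lower, and 6 changes were positive and 4 negative. Fitted on the 6 libraries of these 2 groups alone, edgeR called none of the 5. Their adjusted p ran from 0.0775 for Mt2 to 0.194 for Slc39a14, with log2 fold changes of the same sign. That fit called 110 of 18332 genes. In Cre+ mice 0 of 10 passed in edgeR, as did 0% of all genes, and 0 had an unadjusted p under 0.05, which 3.47% of all genes had. DESeq2 and limma voom called 0 of the 10 there as well. The groups did not overlap for Mt1 and Slc11a1 alone, beside 9.66% of all genes. Their changes were 0.63 (95% interval −0.47 to 1.73) and 0.56 (−0.14 to 1.26), and intervals of this width leave room for a rise.

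Between genotypes under MPTP, 4 of 10 genes passed, beside 1.54% of all genes. Those lower in Cre+ mice were 3 (all genes 1.03%) and the 1 higher was Slc40a1 (all genes 0.517%). In 5 of 10 the animals did not overlap, Fth1 being the fifth, against 11.3% of all genes. All 4 calls were lost when Cre+ MPTP replicate 1, 3 or 4 was left out, with adjusted p up to 0.0668 for Mt1, 0.0715 for Mt2, 0.0586 for Slc40a1 and 0.0844 for Slc11a1, while their log2 fold changes kept their sign. They were lost too with the replicate number as a block (adjusted p = 0.0828 to 0.142) and on these 7 libraries alone (0.281 to 0.298). Over all genes, 42, 41 and 108 passed without Cre+ MPTP replicate 1, 3 and 4, beside 299 with all libraries. With the block, and on the 7 libraries alone, 0 of all genes tested passed. With saline 0 of 10 genes passed between genotypes in edgeR, as did 0% of all, and 0 of 10 had an unadjusted p under 0.05 (0.909% of all genes). DESeq2 and limma voom also called 0. The changes ran from −0.38 for Mt3 to 0.05 for Tfrc.

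Whether the response to MPTP itself differed between genotypes was tested by an interaction term, which 0 of 10 genes passed (0.0103% of all genes). An unadjusted p under 0.05 was found for 5 of 10 (Slc40a1, Mt2, Mt1, Slc11a1 and Slc39a14), beside 5.76% of all genes. The interaction was 1.72 for Slc40a1 (95% interval 0.89 to 2.56, adjusted p = 0.173), −3.02 for Mt2 (−4.71 to −1.32, adjusted p = 0.269) and −2.78 for Mt1 (−4.39 to −1.17, adjusted p = 0.285). DESeq2 called 3 of them (Mt1, Mt2 and Slc40a1) and limma voom 5, beside 223 and 689 of all 19360 genes. Without Cre- MPTP replicate 1 edgeR called Slc40a1 (1.44, adjusted p = 0.015), Mt1 (−1.46, adjusted p = 0.0349) and Slc39a14 (−1.12, adjusted p = 0.0459), beside 199 of all 19311 genes. The difference between the genotypes' responses in these genes therefore depended on the tool and on that library.

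**Figure D3:**
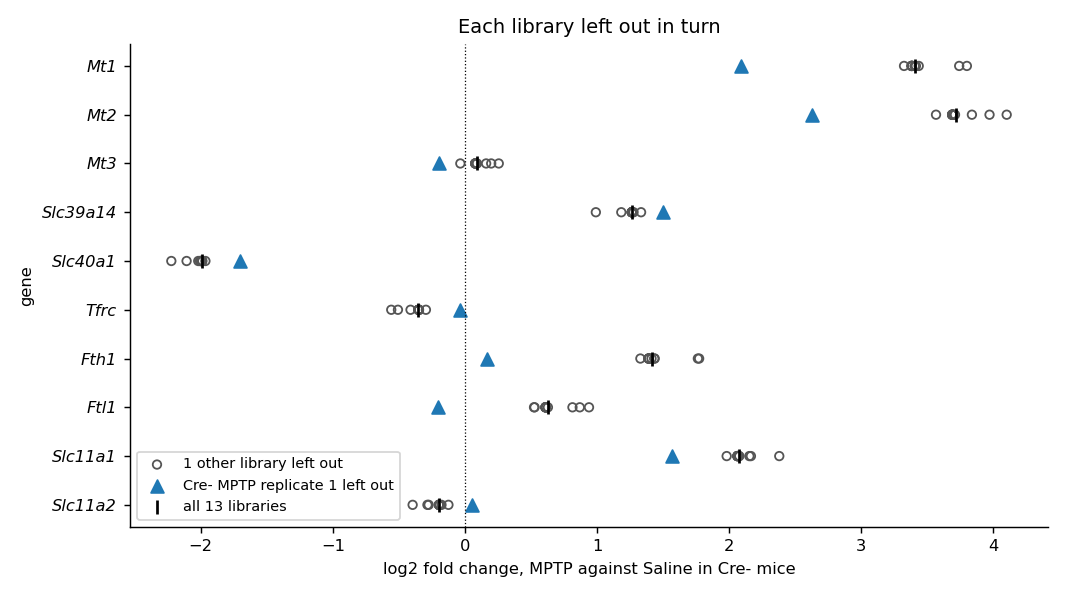
Log2 fold changes for MPTP against saline in Cre- mice with all 13 libraries (bars), with Cre- MPTP replicate 1 left out (triangles) and with each other library left out (circles). Mt1, Mt2, Slc39a14, Slc11a1 and Slc40a1 stay on their side of 0, whereas Fth1 drops from 1.42 to 0.17 and Ftl1, Mt3 and Slc11a2 cross 0.

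In the Cre- MPTP group replicate 1 separated the short from the long genes among the 10. Against the mean of replicates 2 and 3 it held 5.49-fold more Mt1, 4.38-fold more Mt2, 5.14-fold more Fth1, 3.36-fold more Ftl1 and 1.67-fold more Mt3, all with at most 1340 bases of exon. The 4 genes with the longest exon sequence, Slc39a14, Slc40a1, Slc11a2 and Tfrc at 6185 bases or more, stood at 0.553, 0.385, 0.528 and 0.417 times that mean. Over all genes, the median log2 deviation of replicate 1 from its group mean, another measure, was −0.104 to 0.033 in the length classes up to 8 kb and −0.444 above 8 kb. With a trend on gene length removed, an alternative chosen after seeing the data, the same 5 genes passed in Cre- mice. In replicates 2 and 3 alone the mean was 4.26-fold above Cre- Saline for Mt1, 6.18-fold for Mt2, 2.82-fold for Slc39a14 and 2.95-fold for Slc11a1, and it was 0.306-fold for Slc40a1, 1.12-fold for Fth1 and 0.868-fold for Ftl1.

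**Figure D4:**
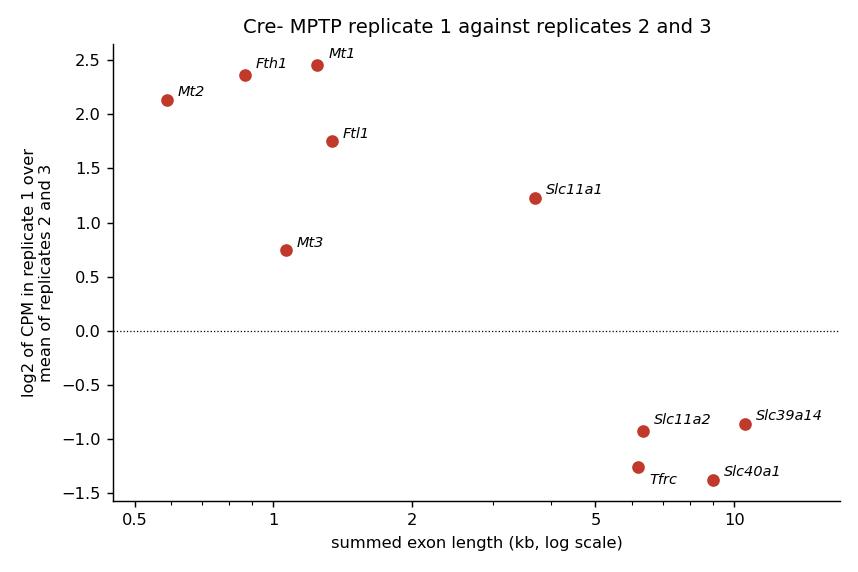
Log2 ratio of CPM in Cre- MPTP replicate 1 to the mean of replicates 2 and 3, against summed exon length in kb on a log scale, 1 point per gene. The 5 genes at most 1340 bases long and Slc11a1 lie above 0, and the 4 longest lie below it.

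Other genes of metal handling were listed in 6 groups, 103 genes of which 95 were tested. With MPTP in Cre- mice 7 rose and 2 fell, beside 2.23% and 0.956% of all genes, and the median change was 0.06. Most of the movement was in iron uptake and export, where 4 of 13 tested rose and 1 fell. Lcn2 encodes lipocalin-2, which binds iron-carrying siderophores and is secreted by reactive astrocytes and neutrophils. It measured 0.159, 0.898 and 0.986 CPM in Cre- Saline and 630, 460 and 595 CPM in Cre- MPTP midbrain, a change of 9.67 (SE 1.09, adjusted p = 0.00085), and 25.8, 153, 15.4 and 20.3 CPM in Cre+ MPTP midbrain. All 4 Cre+ MPTP animals were above all 6 saline animals and below all 3 Cre- MPTP animals. Cp encodes ceruloplasmin, the ferroxidase that works with ferroportin, and rose by 2.87 (SE 0.379, adjusted p = 0.00175) in the group in which Slc40a1 fell. Steap4, a metalloreductase, rose by 5.44 and Scara5, a ferritin receptor, by 1.85, while Trf, which encodes transferrin and is abundant in oligodendrocytes, fell by 0.62 (adjusted p = 0.0192).

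Of the heme genes 2 of 21 tested rose: Hp, encoding the hemoglobin-binding haptoglobin (4.4, adjusted p = 0.00702), and Hmox1, the heme-degrading oxygenase (0.94, adjusted p = 0.00665). Of the zinc and manganese genes Slc39a1, a zinc importer, rose (1.03, adjusted p = 0.0321) and the zinc exporter Slc30a1, itself an MTF-1 target, fell (−0.64, adjusted p = 0.0433) among 22 tested. Mtf1 was at 30.2 CPM with saline and 27.7 CPM with MPTP (−0.12, adjusted p = 0.788). In edgeR 0 of 13 tested genes of iron storage and regulation passed (2 at an unadjusted p under 0.05), as did 0 of 15 mitochondrial iron genes (2) and 0 of 11 copper genes (0). The hepcidin gene Hamp fell under the filter. Between genotypes under MPTP 0 of the 95 were higher (all genes 0.517%) and 5 lower (all genes 1.03%) in Cre+ mice, namely Lcn2, Cp, Hp, Hmox1 and Slc39a1. In Cre+ mice 0 of 95 passed in edgeR, 4 had an unadjusted p under 0.05, and DESeq2 and limma voom called 2 each, beside 83 and 294 of all genes. Lcn2 there changed by 5.93 (adjusted p = 0.104). Without Cre- MPTP replicate 1 the number called rose from 9 to 17 in Cre- mice and from 5 to 11 between genotypes. Over all genes it rose as well, from 616 to 1812 and from 299 to 614. The changes in Cre- mice were then 9.58 for Lcn2, 3.12 for Cp, 5.66 for Steap4, 1.84 for Scara5, 3.66 for Hp, 0.92 for Hmox1 and 0.60 for Slc39a1, and −0.63 for Trf and −0.78 for Slc30a1, and all 9 passed.

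**Figure D5:**
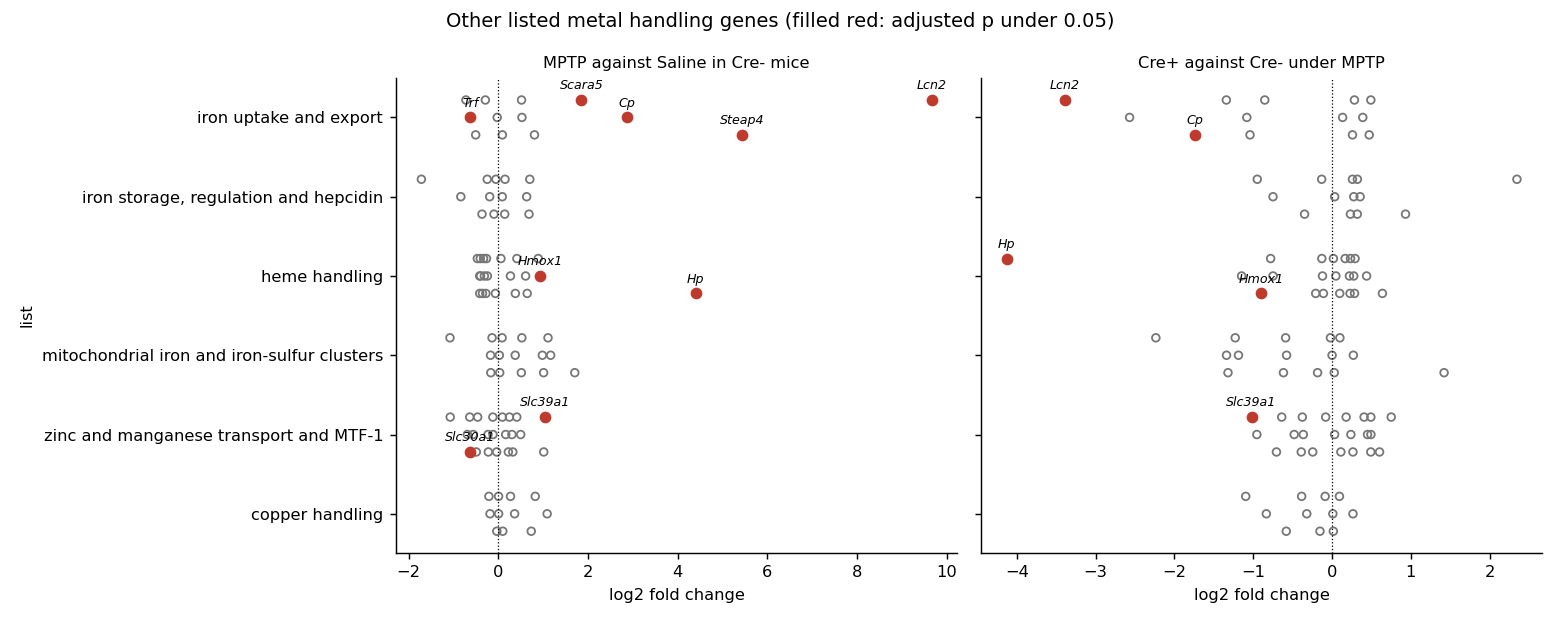
Log2 fold changes of the 95 other metal handling genes tested, by list, for MPTP against saline in Cre- mice and for Cre+ against Cre- under MPTP. Filled red points passed at an adjusted p under 0.05, and most open points lie within 1 of 0.

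Genes known to respond to the inducers of Mt1 and Mt2 were listed as well. With MPTP in Cre- mice 2.23% of all genes tested rose, and 1.03% were lower in Cre+ than in Cre- mice under MPTP. Of 12 glucocorticoid-responsive genes 7 rose in Cre- mice after MPTP, among them Fkbp5 (2.75, adjusted p = 0.000628) and Sgk1 (2.19, adjusted p = 0.00332). Under MPTP 6 of the 12 were lower in Cre+ than in Cre- mice. Of 11 genes of the IL-6 and STAT3 response 6 rose in Cre- mice, among them Socs3 (4.64, adjusted p = 0.00338) and Osmr (2.63, adjusted p = 0.00521), and 5 were lower in Cre+ mice under MPTP. In Cre+ mice 0 genes of either list passed in edgeR, with 4 and 2 at an unadjusted p under 0.05. The astrocyte genes Gfap (2.60, adjusted p = 0.00202) and Aldh1l1 (0.65, adjusted p = 0.0403) rose in Cre- mice, 2 of 10 astrocyte genes, of which 5 had a positive and 5 a negative change (median −0.05). The summed level of the other 9 without Gfap was 2367 to 4454 CPM in Cre- MPTP and 3767 to 4305 CPM in Cre- Saline midbrain, and the 2367 CPM belonged to Cre- MPTP replicate 1. Leaving out Cre- MPTP replicate 1, the calls in Cre- mice were 10 higher of the glucocorticoid, 6 higher of the IL-6 and STAT3, and 4 higher and 1 lower of the astrocyte genes, and Fkbp5 was 2.56, Sgk1 2.19, Socs3 3.74, Osmr 2.94, Gfap 2.11 and Aldh1l1 0.53, all with an adjusted p under 0.05. Between genotypes 10 and 7 genes of the first 2 lists were then lower in Cre+ mice. Over all genes the number called rose in that fit too, from 616 to 1812 in Cre- mice and from 299 to 614 between genotypes. Whether more astrocytes, the hormone or the cytokines had a part in the metallothionein values was not tested.

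The genes most like each member across the 13 libraries were ranked by Pearson's r of log2 CPM among 12491 genes, as a description over libraries that share depth and group. For Mt1 they were Il17ra (0.992), Tnfrsf1a (0.989) and Mxd4 (0.988), and for Mt2 Bcl3 (0.989), Aspg (0.987) and its antisense partner Gm45774 (0.986). Slc39a14 was closest to Osmr (0.990), Slc40a1 to Itm2a (0.978) and Slc11a1 to H2-K1 (0.982). Without Cre- MPTP replicate 1 these 3 values were 0.992, 0.955 and 0.954, while Fth1 and Stx18 went from 0.991 to 0.833 and Tfrc and Rsu1 from 0.983 to 0.856. Between members, Fth1 and Ftl1 had an r of 0.938 over all libraries and 0.284 without replicate 1, whereas Mt1 and Mt2 had 0.989 and 0.984.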

How the data were processed

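Total RNA of perfused midbrain was sequenced as stranded paired-end libraries and processed by the authors, per the labels' notes, with Trimmomatic 0.36, STAR 2.5.2b and featureCounts of Subread 1.5.2 on GRCm38. The deposited values are raw counts of reads per gene, with no normalization. The strand setting is not given in the sources used here. Symbols came from GENCODE M21 and matched 49056 of 49315 gene identifiers.

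The filter kept genes that reached 10 raw counts in 3 or more libraries, and TMM factors were then computed from the genes kept. The model in edgeR 4.0.16 (R 4.3.3) had a term for each group and used every library. Its quasi-likelihood test was run for 5 comparisons with Benjamini-Hochberg adjustment over all genes tested, at a threshold of 0.05. Levels are CPM, and CPM per kb divides by the deposited exon length. The fits were tested on simulated data. Alternatives were DESeq2 1.42.0, limma 3.58.1 (voom, weighted by library quality), fits of only the groups compared, other size factors, 2 other count filters, the replicate number as a block, each library left out, and the removal of a trend on gene length. The last, and the values of the marker and response lists without Cre- MPTP replicate 1, were chosen after seeing the data. The genes named from the other lists are those that passed in a comparison, and the most alike genes are the 3 with the highest r. The metal response and antioxidant response cores, the iron responsive element pattern, the 10 genes and all lists were chosen with earlier results of these data known, and the genes named outside these rules (Mtf1, Hamp, Ly6g, Ripk3 and Gm45774) after their values were seen. Each animal gave 1 library, so p-values cover the spread between animals.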

Additional observations from a re-analysis of the deposited data

Results flagged for a closer look

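In 3 cases 1 of the 4 Cre+ MPTP animals lay far from the other 3, its gap to the nearest exceeding the 95% critical value of Dixon's test for 4 samples, as a share of the group's range. Mt1 stood at 311 CPM and Mt2 at 172 CPM in Cre+ MPTP replicate 2, each the highest of the group, at 0.844 and 0.842 of the range. Slc11a2 stood at 69.3 CPM in Cre+ MPTP replicate 3, again the highest, at 0.896 of the range. Lcn2 was also highest in Cre+ MPTP replicate 2 (153 CPM). Groups of 3 were not tested in this way, and chance flags about 1 in 20 groups.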

How the results depend on the processing

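In Cre- mice the number of the 10 genes that passed after MPTP was 4 to 6 with each library left out and 0 with edgeR on those 2 groups alone. Between genotypes under MPTP it was 0 on the 2 groups alone and 0 with the replicate block, settings in which 0 of all genes passed. It was 0 to 6 with each library left out, against 4. For the interaction it was 3 in DESeq2, 5 in limma voom, 3 with both Cre- MPTP replicate 1 and Cre+ MPTP replicate 4 left out, and 0 to 3 with each library left out, against 0. The causes were not tested. The deviations from the group mean of the 18 same-numbered pairs of libraries correlated at −0.275 to 0.353. Pairs with different numbers were not compared, so these values do not settle whether replicate numbers pair the animals.

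Some changes that had not passed turned their sign. With MPTP in Cre- mice Mt3 was −0.0049 in limma voom, −0.186 with both libraries out and −0.198 to 0.256 with each left out. Ftl1 was −0.017, −0.189 and −0.201 to 0.94 in the same order, and Slc11a2 0.016, 0.062 and −0.396 to 0.052. Between genotypes under MPTP Tfrc was −0.088, −0.014 and −0.066 to 0.451, and Slc11a2 −0.093, −0.078 and −0.0904 to 0.364, while Ftl1 was −1.14 to 0.0058 with each library left out. Of all log2 fold changes under the alternatives 588 kept direction and side of the threshold, 27 lost it, 23 gained it and 17 turned.

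The number called among all genes went from 616 to between 110 and 2624 in Cre- mice, from 0 to at most 294 in Cre+ mice, from 299 to between 0 and 1826 between genotypes under MPTP, and from 2 to between 0 and 689 for the interaction. Among the 95 other metal genes it went from 9 to between 3 and 19 in Cre- mice and from 5 to between 0 and 15 between genotypes.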
